A study of Mus musculus with 18 samples.

Results

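Calls in Cbl, Ptpn11, Gab1 and Nck2, genes of receptor tyrosine kinase signalling, were taken from exome sequencing of 17 mouse leukemias. All rows of the deposited MuTect2 table that carry any of the 4 gene names were kept, in every leukemia, which gave 5 calls among 2653. The genes were chosen by their protein changes and allele fractions in this same table, so these values are a description and no test was run on them. The leukemias arose in NP23-NHD13 double transgenic mice of the C57Bl6-NIH background, and all are labelled thymic AML. Thymus was sampled in 11 of the mice and bone marrow in the other 6, with tail DNA of 1 C57Bl6-NIH wild-type mouse as the only normal. NP23 stands for a NUP98-PHF23 fusion and NHD13 for a NUP98-HOXD13 fusion, which as background are known to be expressed in blood cells from Vav1 regulatory sequences. The labels used here name no promoter, age or treatment. The mouse number ends in NN for 9 leukemias, called the NN series, and lacks that ending for 8.

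A receptor tyrosine kinase that binds its ligand phosphorylates itself, and proteins with SH2 domains then dock on the phosphorylated tyrosines. Nck2 is an adaptor of this kind, which links phosphorylated proteins to partners of its SH3 domains. Gab1 is a docking protein without an SH2 domain that is itself phosphorylated near active receptors and then bound by SH2 proteins. Ptpn11 encodes SHP2, a phosphatase with a pair of SH2 domains that binds Gab1 and promotes signalling toward RAS. Cbl is a ubiquitin ligase that marks active receptors for degradation and so limits the signal. In human myeloid leukemias, CBL is known for mutations in its linker and RING regions, and PTPN11 for mutations that disturb the contact between its first SH2 domain and its catalytic domain.

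All 5 calls altered the protein and 0 were synonymous, which the choice of genes used. Over all genes, 1051 of 2653 calls altered a protein (39.6%). Cbl was altered in 2 leukemias, the bone marrow leukemia M59 and the thymus leukemia M61. Gab1, Nck2 and Ptpn11 were altered in M59 alone, which therefore carried a change in each of the 4 genes. The other 15 leukemias had no row for any of them, so 2 of 17 leukemias were affected (11.8%, exact binomial 95% interval 1.46% to 36.4%). Both affected leukemias belong to the NN series. The depth of the other leukemias at these sites was not analysed here, and an undetected change there cannot be told apart from none.

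Of the 5 changes, 2 alter the reading frame, and these are shown as sequence because their bases tell which part of the gene is lost or repeated. The Cbl deletion of M61 removed 29 bases, printed on the coding strand with the intron in lower case and the exon in capitals. The Nck2 change of M59 repeated 20 coding bases in tandem, printed as the single reference copy and as the repeated stretch with the added copy in capitals.
Cbl deletion: ttcaccaaagGAACAATATGAATTATACT
Nck2 reference: aatgagcggggcgtcgaggg
Nck2 duplication: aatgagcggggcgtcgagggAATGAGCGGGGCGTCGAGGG

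The Cbl deletion, E364fs, lay on chromosome 9, where the deposited record runs from position 44164238 to 44164267 (mm10) with its first base retained. It took the last 10 bases of the intron before exon 8 of 16 and the first 19 bases of that exon. The removed intron end includes the letters ag of the splice acceptor. The exon part starts at coding base 1090 and ends at 1108. It held 6 whole codons, 364 to 369, of which tat at codon 366 and tac at codon 369 are tyrosine codons, and the first base of codon 370. As background, this stretch belongs to the linker between the tyrosine kinase-binding domain of Cbl and its RING domain, and tyrosine phosphorylation of the linker is known to switch on the ligase. The annotation called the deletion a frameshift and a splice acceptor change together, the only such call among the 2653. It marked the gene as lost in function, as it did Nck2 for the duplication. RNA was not measured, so how the transcript is spliced is unknown. Only 6 deletions of 20 or more bases were listed in the whole table, each in a single leukemia.

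Cbl R557K in M59 lay at position 44158779 of chromosome 9, in exon 11 of 16 (c.1670G>A). Residue 557 of 913 lies beyond the RING domain, in the proline-rich part of the protein that binds SH3 domains. The Cbl changes of the 2 leukemias were thus of different kinds, a missense change that leaves the linker and RING in place and a deletion at the linker.

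Ptpn11 A72V lay at position 121167966 of chromosome 5, in exon 3 of 16 (c.215C>T). Residue 72 of 597 is in the first SH2 domain, at the face that covers the catalytic site of the inactive enzyme. Alanine 72 is, as background, among the residues of human SHP2 known to be mutated in myeloid leukemia. Gab1 D685G lay at position 80766453 of chromosome 8, in the last of 11 exons (c.2054A>G). It was 40 residues from the end of the 725-residue protein. The C-terminal part of Gab1 is known for the phosphorylated tyrosines that bind the SH2 domains of SHP2. The Nck2 duplication, D307fs, lay at position 43554531 of chromosome 1, in exon 4 of 5, and repeated coding bases 898 to 917. Codons 300 to 306 hold the repeated bases, and the frame is lost in the C-terminal SH2 domain of this 380-residue protein. Its 3 SH3 domains lie before that point. Coding duplications of 10 or more bases numbered 2 in the table, the other being in M18.

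**Figure D1:**
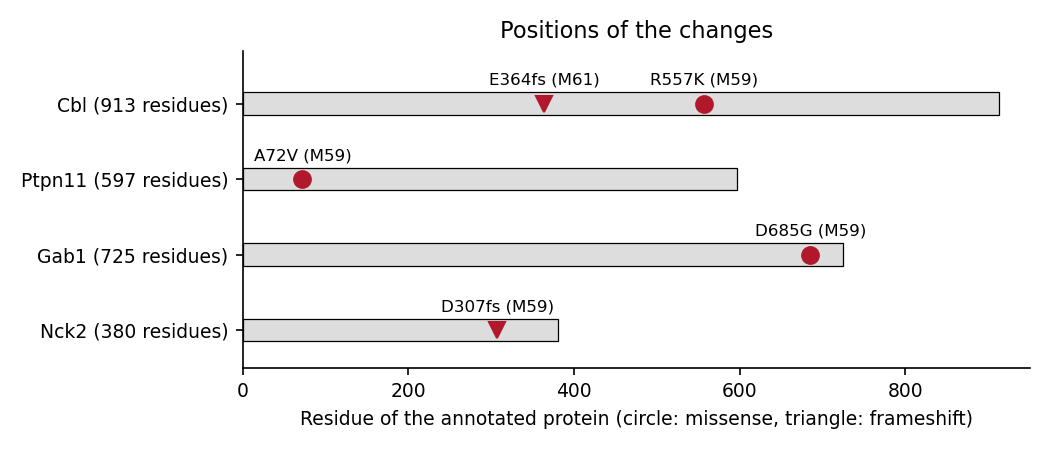
Residue of each change along the annotated protein of Cbl, Ptpn11, Gab1 and Nck2, with the leukemia in brackets. Grey bars are drawn to the length of the protein, circles are missense changes and triangles frameshifts. Ptpn11 A72V sits near the start and Gab1 D685G near the end of its protein.

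The share of reads that carried each change was read against its depth, the number of reads over the site. The shares differed widely within M59. Cbl R557K was carried by 53 of 125 reads, a share of 42.4% (exact binomial 95% interval 33.6% to 51.6%). Gab1 D685G was carried by 44 of 125 reads, a share of 35.2% (interval 26.9% to 44.2%). These 2 missense changes were the most frequent of the 5 and had the same depth. The Nck2 duplication was carried by 9 of 46 reads, a share of 19.6% (interval 9.36% to 33.9%). Ptpn11 A72V was carried by 4 of 77 reads, a share of 5.19% (interval 1.43% to 12.8%), and rests on the fewest reads. In M61 the Cbl deletion was carried by 9 of 79 reads, a share of 11.4% (interval 5.34% to 20.5%). Whether PCR copies of the same molecule were removed is not known here, and these intervals cover counting error alone.

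The allele fraction given by the authors' caller kept the same order in M59, with 0.407 for Cbl, 0.337 for Gab1, 0.263 for Nck2 and 0.05 for Ptpn11. It was 0.103 for the Cbl deletion of M61. For Nck2 the caller's fraction was 1.34 times the share of reads. Long insertions often showed this. Among 95 insertions of 10 or more bases in the table, 73 had a caller's fraction above the share of reads (76.8%). Over the 95 the median ratio was 1.20. They include the Nck2 duplication itself, and other kinds of calls were not compared.

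Counting error left Cbl and Gab1 inseparable, while Ptpn11 lay below the rest. The Gab1 share was 0.830 times that of Cbl (95% score interval 0.605 to 1.13). The Nck2 share was 0.461 times that of Cbl by reads (interval 0.243 to 0.819), and 0.646 times by the caller's fraction. Against Gab1 it differed by -15.6 percentage points (Newcombe interval -28.1 to 0.0570), an interval that includes 0. The Ptpn11 share was 0.123 times that of Cbl (interval 0.0471 to 0.305), 0.148 times that of Gab1 (interval 0.0563 to 0.371) and 0.266 times that of Nck2 (interval 0.0904 to 0.772). Whether the changes fell in the same cells cannot be read from bulk DNA. Fewer cells with a change and fewer changed copies per cell cannot be told apart either.

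**Figure D2:**
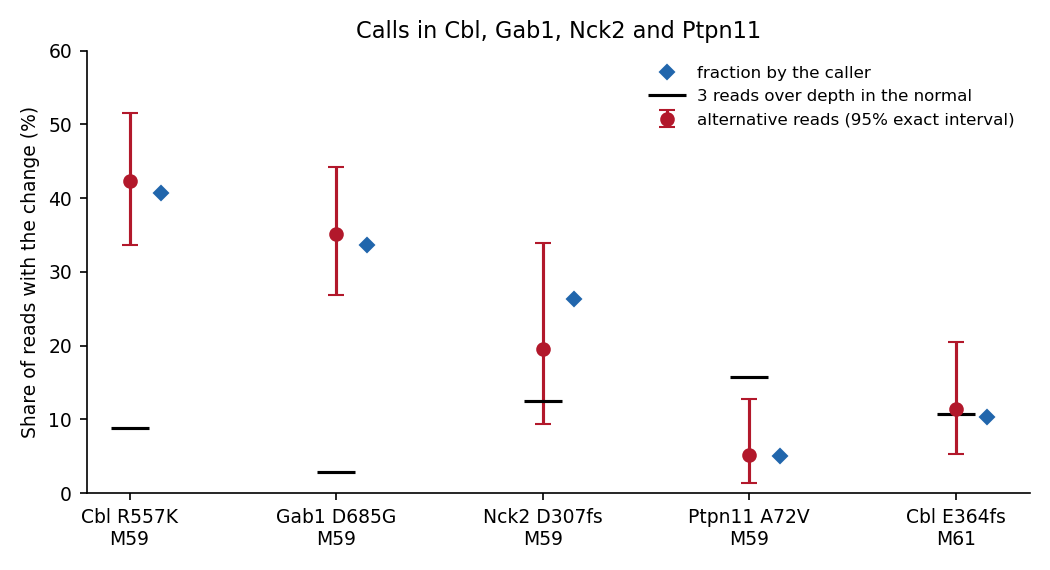
Share of reads with each change, in percent, for the 4 calls of M59 and the Cbl deletion of M61. Red circles are alternative reads over depth with exact 95% intervals, blue diamonds the caller's fraction, and black bars the share that 3 reads would make of the normal's depth. Cbl (42.4%) and Gab1 (35.2%) stand well above that bar, while Ptpn11 (5.19%) stands below it.

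The wild-type tail had 0 reads with any of the 5 changes, at depths of 19 to 104 reads. Every listed call had passed the caller's filters in a comparison with a normal. Few or no such reads in the tail are thus partly a condition of being listed. How many of all calls had 0 reads there is not given here. A count of 0 allows a share of up to 8.82% at Cbl R557K (34 reads), 2.88% at Gab1 (104 reads), 12.5% at Nck2 (24 reads), 15.8% at Ptpn11 (19 reads) and 10.7% at the Cbl deletion (28 reads). Cbl R557K and Gab1 D685G exceeded this limit with their whole interval. The Nck2 share exceeded it but its interval reached below, as did that of the Cbl deletion. At Ptpn11 the tail was too shallow to show a share of the size found in M59. None of the 5 calls was marked as a database variant, and each site was listed in a single leukemia. The latter held for 59 of all 96 calls of M59 and for 14 of all 50 calls of M61. The share of database-marked calls over the whole series is not given here. The tail came from another mouse, so an inherited and an acquired change cannot be told apart by this comparison.

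Depth in the leukemia differed between the sites too. The median depth of M59 at 18 sites shared by 10 or more leukemias was 121.5 reads. Cbl and Gab1 were covered at 1.03 times that depth, Ptpn11 at 0.634 times and Nck2 at 0.379 times. M61 was shallower, with a median of 52.5 reads at 14 such sites, and its Cbl deletion site had 1.5 times that. Across the 17 leukemias this median ran from 38 to 130 reads.

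Reads with the change came from both read-pair orientations at all 5 sites, with unequal balance at the low counts. For Cbl R557K, 25 reads had the orientation F1R2 and 28 the orientation F2R1, and for Gab1 D685G the numbers were 19 and 25. For the Nck2 duplication they were 1 and 8, where the reference reads divided into 16 and 21. For Ptpn11 they were 1 and 3, against 36 and 37 reference reads. The Cbl deletion had 3 and 6, against 33 and 37. The score that the caller gave each variant, a log odds that it is present in the leukemia, was 154.7 for Cbl R557K and 103 for Gab1. It was 35.3 for Nck2, 21.7 for the Cbl deletion and 7.36 for Ptpn11, the lowest of the 5.

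The calls were next placed among the private calls of their own leukemia, those at sites listed nowhere else. M59 had 32 private protein-altering calls, of which 28 lay below an allele fraction of 0.10. Cbl, Gab1 and Nck2 ranked 1, 2 and 3 by allele fraction, and Ptpn11 ranked 12. Only 4 of the 32 reached 0.10 at a depth of 20 reads or more. The remaining one was S1312L in Sycp2, a component of the meiotic synaptonemal complex, in 27 of 150 reads (18%). Over the whole table, 153 of 720 genes with protein-altering calls had such a private call (21.2%). Here 3 of the 4 genes did, in M59, which the choice of genes used. Among all 59 private calls of M59, the ranks of Cbl, Gab1 and Nck2 were 3, 4 and 6, because calls outside coding changes stood above or between them.

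Ptpn11 A72V stood in a dense field of low-fraction calls. M59 also carried 7 Nsd1 insertion calls at exon ends, at fractions of 0.051 to 0.078 and with 2 to 9 reads each. Nsd1 is a histone H3 lysine 36 methyltransferase, and its calls in M59 were close in fraction to Ptpn11 and well below Cbl and Gab1. In M61 the number of Nsd1 insertion calls was 0.

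**Figure D3:**
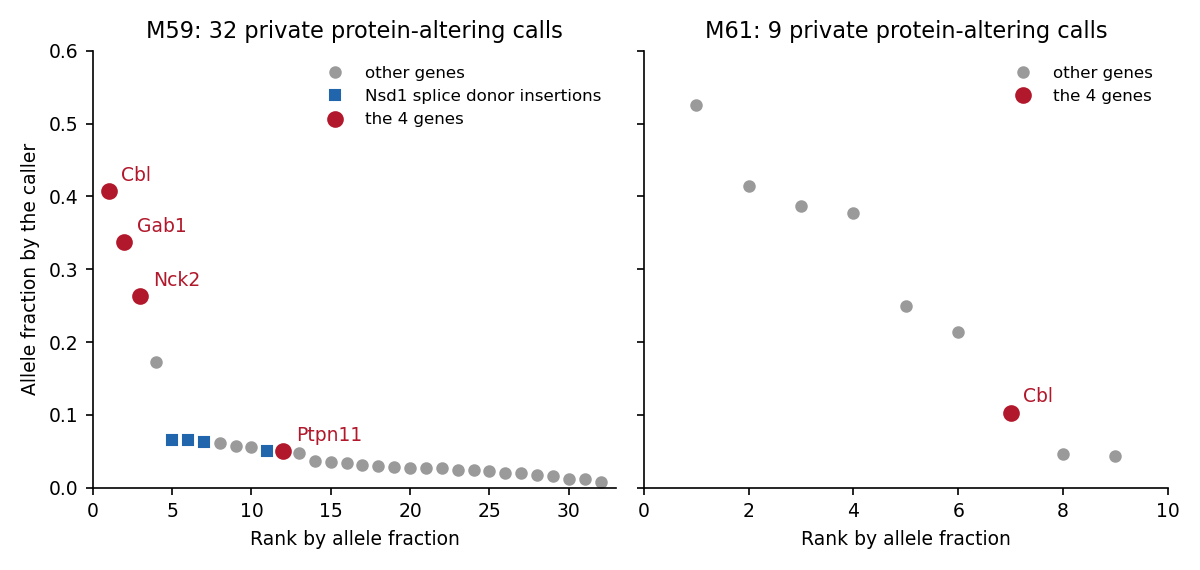
Allele fraction by the caller (vertical axis) of every private protein-altering call, ranked from the highest, in M59 and M61. Red circles are Cbl, Gab1, Nck2 and Ptpn11, blue squares Nsd1 splice donor insertions and grey circles other genes. In M59 the 3 highest points are Cbl (0.407), Gab1 (0.337) and Nck2 (0.263); in M61 Cbl (0.103) is 7th of 9.

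The kind of base change was set beside that of the other private calls of M59. Of the 3 single-base changes, Cbl R557K and Ptpn11 A72V were C>T (counted with G>A) and Gab1 D685G was T>C. Private single-base calls of M59 below a fraction of 0.10 numbered 41, of which 29 were C>A and 4 were C>T. At or above 0.10 there were 6, with 0 C>A and 4 C>T. Ptpn11 A72V is itself among these 41 low-fraction changes and among their 4 C>T changes. C>A, the main class among the 41, occurred in none of the 4 genes.

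M61 held fewer private calls, and its Cbl deletion was not among the most frequent. Of 9 private protein-altering calls, 7 reached a fraction of 0.10 at the depth of 20, and the deletion ranked 7th. V132E in Tigit, an inhibitory receptor of lymphocytes, led with 23 of 43 reads (53.5%). L267H in Utp3, a factor of ribosome biogenesis, followed with 32 of 80 reads (40%). A frameshift in Wnk4, a kinase that regulates ion transport, was in 26 of 70 reads (37.1%), and R266W in Bmp7, a bone morphogenetic protein, in 14 of 47 reads (29.8%). R415S in Gm14347 had 24 of 62 reads, and the database-marked E174D in Gm9758 had 48 of 205. The fraction of the Cbl deletion, 0.103, lay below the median of the 9 calls, 0.25.

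Sites shared by many leukemias gave a scale for these fractions. Among sites on assembled chromosomes listed in at least 10 leukemias, with a median fraction of at least 0.40 in the other leukemias, M59 was listed at 16. At 9 of these its fraction lay between 0.3 and 0.8, with a median of 0.548 and a range of 0.438 to 0.639. As point values, Cbl R557K (0.407) lay just below this range, Gab1 (0.337) and Nck2 (0.263) further below, and Ptpn11 far below. By share of reads, the same 9 sites ran from 45.4% (Dpagt1) to 67.5% (Tbc1d2b). The interval of the read share of Cbl (33.6% to 51.6%) reached into that range. Those of Gab1 (26.9% to 44.2%) and Nck2 (9.36% to 33.9%) ended below it. In M61, 5 of 12 such sites lay between 0.3 and 0.8 (median 0.479, range 0.426 to 0.682), and the Cbl deletion lay far below them. The nearest such site to Cbl, Dpagt1 A356V at position 44332871 of chromosome 9, was 174 kb from R557K. M59 carried it in 84 of 185 reads (45.4%, interval 38.1% to 52.9%), so both alleles of that site were present in this sample. Dpagt1 encodes an enzyme of protein N-glycosylation.

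A few of the shared sites were low in M59. Cst12 K68K was carried by 7 of 193 reads (3.63%) and Mina G218S by 7 of 91 (7.69%). Their median fractions in the other leukemias that listed them were 0.514 and 0.517. M59 had 3 of 16 shared sites below 0.10, M57 had 1 of 18 and each of the other 15 leukemias had 0. The shares at Cst12 and Mina were near that of Ptpn11 A72V (5.19%), whose site was listed in no other leukemia. Whether reads from the DNA of another mouse were present in M59, and their part in the Ptpn11 result, was not tested.

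**Figure D4:**
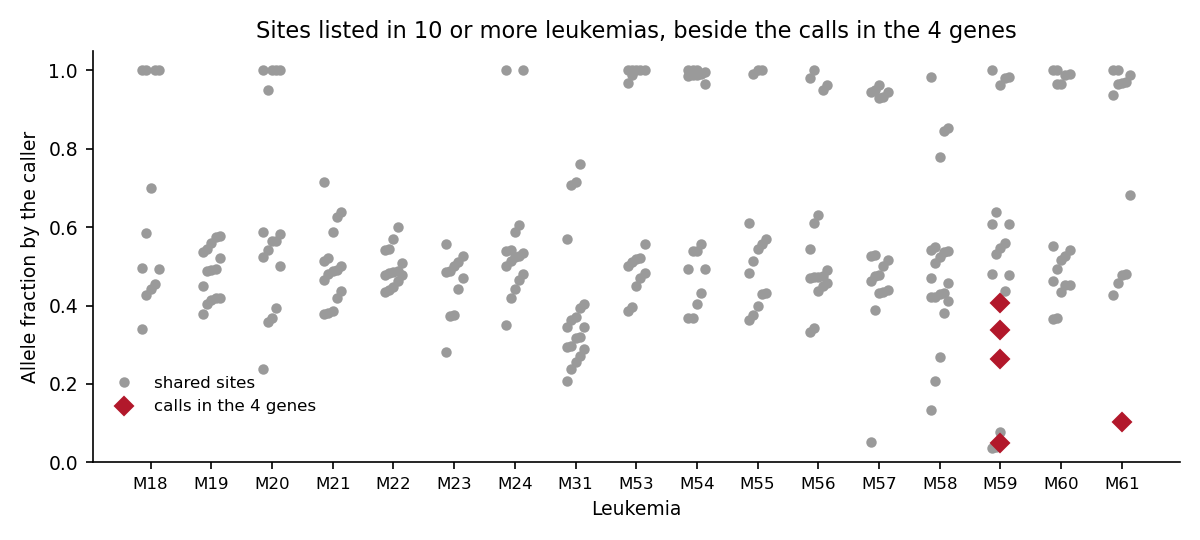
Allele fraction by the caller (vertical axis) at sites listed in 10 or more leukemias with a median of at least 0.40 in the others (grey circles), and for the calls in the 4 genes (red diamonds), by leukemia. In M59, Cbl, Gab1 and Nck2 lie between the shared sites near 0.548 and the 3 shared sites below 0.10, which flank Ptpn11.

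Other genes of the pathway were read from a list of 225 genes, all 225 of which matched a symbol in the RefSeq table (GRCm38.p6). Protein-altering calls fell in 12 of the 225 (5.33%). Over all 21896 protein-coding genes of that table the share was 3.18%. Without Cbl, Ptpn11, Gab1 and Nck2, which were chosen for their calls, it was 8 of 221 (3.62%), close to that background. Coding length was not taken into account.

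By role, 4 of 54 receptors, 2 of 33 ligands, 2 of 31 adaptors, 1 of 14 ubiquitin ligases and partners, 1 of 13 phosphatases, 0 of 33 RAS genes and regulators, and 2 of 47 effectors were altered. Both altered adaptors were Gab1 and Nck2, and the altered ligase and phosphatase were Cbl and Ptpn11. So no listed adaptor, ubiquitin ligase or phosphatase beyond the 4 genes had a protein-altering call in the rows analysed.

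The 8 remaining genes had 10 calls with a median fraction of 0.049, against 0.048 for all 1051 protein-altering calls. Fgr, a SRC family kinase of myeloid cells, had the only ones at or above 0.10. Its R484H change was listed in 2 bone marrow leukemias, in 25 of 66 reads in M57 (37.9%) and in 5 of 37 in M58 (13.5%), at the same site (chromosome 4, position 133000240). The other 7 genes rested on 2 to 5 reads per call, at fractions of at most 0.059. Among the receptors these were Ror1 P660S in M18, the insulin receptor-related gene Insrr F118L in M19, the ephrin receptor gene Epha4 K662R in M22, and Ephb1 in M24, where R367H and R368fs stood 2 bases apart. The growth factor genes Igf2 (A99T, M18) and Nrg1 (A607T, M31) and the kinase gene Pak1 (A91V, M22) completed the list. Among the protein-altering calls of the 225 genes, Cbl R557K had the highest fraction. Gab1 and Nck2 stood above all such calls but Cbl R557K and, in M57, Fgr. The choice of the 4 genes used their fractions, so this order is a description only.

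M59 had protein-altering calls in 4 listed genes, which are the 4 genes chosen for these calls. M18 and M22 had calls in 2 each, M19, M24, M31, M57, M58 and M61 in 1 each, and the other 8 leukemias in 0. The number of private protein-altering calls was 32 in M59 and ran from 4 to 165 over the 17 leukemias.

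Among the 4 genes, Cbl was the only one altered in more than 1 leukemia. It was altered in 2 leukemias at 2 sites, as were 40 of 720 genes with protein-altering calls (5.56%, counting 2 or more leukemias and 2 or more sites). With calls at or above 0.10 alone, 3 genes met this, Cbl among them, which the choice of genes used. The share among all genes with calls from that fraction upward is not given here. The M61 call of Cbl, at 0.103, was barely above the limit, and the interval of its read share (5.34% to 20.5%) reached below it. The Cbl sites lay in different exons and the affected mice had different tissues sampled.

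**Figure D5:**
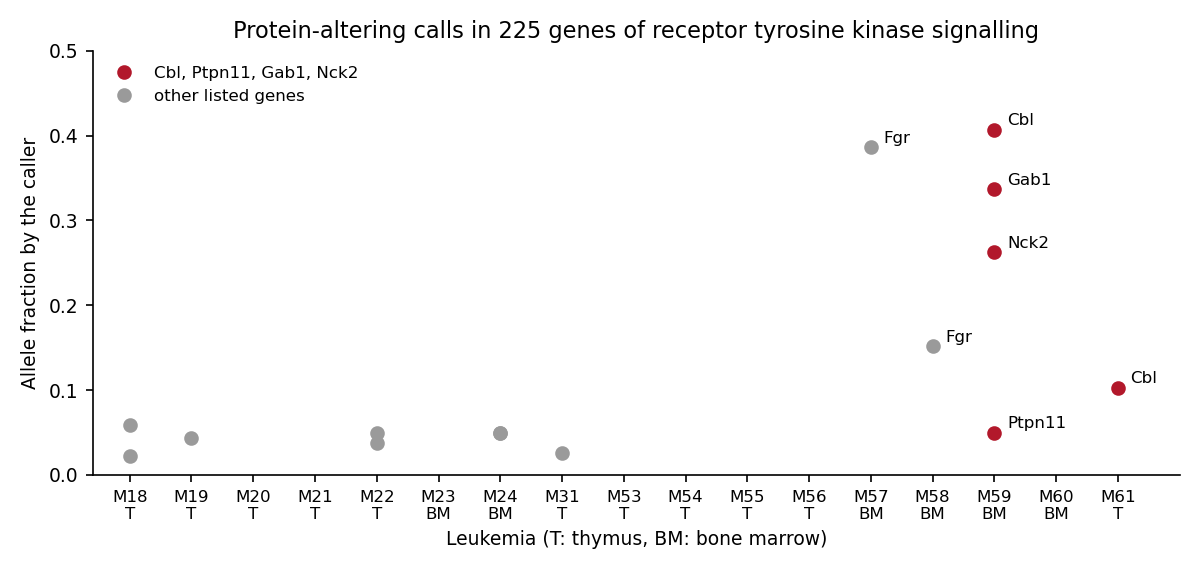
Allele fraction by the caller (vertical axis) of every protein-altering call in the 225 listed genes, by leukemia (T, thymus; BM, bone marrow). Red circles are Cbl, Ptpn11, Gab1 and Nck2 and grey circles the other listed genes. Apart from Fgr in M57 (0.386) and M58 (0.152), all grey points lie at or below 0.059.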

How the data were processed

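Libraries followed a Nextera protocol and exons were enriched with a SureSelectXT mouse kit, per the labels' protocols. The builds mm10 and GRCm38 stand in the submitters' processing notes, which also list BWA 0.7.17, bcl2fastq 2.17.1.14 and GATK, without roles. MuTect2 is named by the deposited table, whose columns, per the file headers, compare each leukemia with a normal. Read counts of either allele, their orientations and depth are raw read counts, as the authors deposited them. The allele fraction is a fraction deposited by the authors, as estimated by the caller. The tumor score is a log odds score deposited by the authors. All rows were marked as passing and as within a bait region. A further 31 columns of per-sample values were not used.

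Calls, ranks and counts were computed with pandas 2.3.3, exact (Clopper-Pearson) intervals with scipy 1.17.1, and score and Newcombe intervals with statsmodels 0.14.6, all at 95%. The limit for a count of 0 is 3 reads over depth. The code was tested on simulated data. Exon numbers that a spreadsheet had turned into dates were recovered from the month and the day. The same had happened to 3 gene symbols, none of them a listed gene. Missense, frameshift, in-frame, stop gained, stop lost, start lost and splice donor or acceptor changes were counted as protein-altering. Domains are background knowledge. A further shared site is counted but not reported here. The rule for named genes took every call in the 4 genes, every listed gene with a protein-altering call, and up to 10 private protein-altering calls per affected leukemia with fractions from 0.10 and depths from 20 reads upward. The 4 genes and the list were chosen with earlier results of these data known. Each leukemia is a separate mouse. Alternatives changed the fraction, depth and consequence filters and left out leukemias.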

Additional observations from a re-analysis of the deposited data

Results flagged for a closer look

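C>A made up 61.7% of the 47 private single-base calls of M59, where the next bone marrow leukemia, M60, had 20% of 10. The gap to the next leukemia over the range of the 6 bone marrow leukemias exceeded Dixon's limit, which flags about 1 in 20 groups by chance. That limit weighs the 6 percentages equally, although they rest on 10 (M60) to 81 (M24) calls. Among the thymus leukemias, which were not part of this comparison, the highest share was 31.8% of 22 calls, in M56. None of the calls in the 4 genes was C>A. M59 also had 4 calls in Cbl, Ptpn11, Gab1 and Nck2, where the other 5 bone marrow leukemias had 0, and protein-altering calls in 4 genes of the pathway list, where the next had 1. These are the same 4 genes, chosen for those calls, so their numbers in M59 follow from the choice and support nothing.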

How the results depend on the processing

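Of 67 recomputed values, 52 stayed within 1.5 times a count, the interval of a fraction or the same rank, and 15 moved. For the 4 genes some settings could change nothing, so the 52 overstate stability. None of their calls was database-marked, their lowest depth was 46 reads, and M18, M19 and M22 carried no such call. Leaving out M59 or M61 took the leukemias with a call in the 4 genes from 2 to 1, and without M59 only 1 of the 4 genes, Cbl, was altered. Genes of the pathway list with protein-altering calls went from 12 to 4 with only calls from a fraction of 0.10 upward and to 7 without M18, M19 and M22. Genes altered in 2 or more leukemias at 2 or more sites went from 40 to 3 from that fraction upward, to 9 without M18, M19 and M22, and to 24 with sites within 10 bases as 1. Cbl was among them under each of these 3 settings, and dropped out without M59 or without M61. The other 7 moves were ranks: among all private calls the 5 calls ranked lower, and Ptpn11 ranked 9 by share of reads and 7 among single-base changes. With a depth of at least 20 reads in the normal, Ptpn11 was left out and 2 leukemias remained. Depth equalled the sum of both alleles' reads in every row, so changing the denominator changed nothing. No paired analysis was possible because the leukemias share no replicate numbers. Depth in the leukemia was lowest at Nck2 (46 reads), and depth in the normal was lowest at Ptpn11 (19 reads).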

Other observations

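Calls outside protein-altering changes in the pathway list fell in 8 genes. A deletion in an intron of Pdpk1, a kinase that activates AKT, was listed in 6 leukemias, among them M59, at fractions of 0.057 to 0.458. Intronic calls in Ddr1, a collagen receptor, were listed in 3 leukemias at fractions of 0.031 to 0.058, and in Ptpn6, which encodes the phosphatase SHP1, in 2 leukemias at 0.036 and 0.043. Ptprc, the gene of CD45, had 6 intronic calls in M31 at fractions of 0.231 to 0.571. Vav1, a signalling gene of blood cells, had 4 insertion calls just before its start codon in 3 leukemias, at fractions of 0.303 to 0.5. Both fusions are known to be expressed from Vav1 regulatory sequences, and whether these reads came from the transgenes was not tested. Alk had the only synonymous call of the list, in M31 at 0.267.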
